A study of Mus musculus with 10 samples.

Results

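Transcript levels of 9 transcription factors of macrophage maturation and identity were followed in myeloid cells of tumor-bearing mice with floxed Ptpn11, with or without a myeloid Cre. The genes were Maf, Mitf, Tfec, Nr1h3, Pparg, Spic, Id3, Zeb2 and Bhlhe40. They were chosen by name for their role in macrophages, and each was matched by its Ensembl identifier to 1 of the 55421 genes of the count table. Earlier results of these data were known when the set was put together, so the counts of called members below describe the set and are no independent support for a direction.

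All mice carried MC17-51 fibrosarcoma, a transplantable mouse tumor, and cells were collected on day 15. Control mice were Shp2f/f, in which the gene for SHP-2, Ptpn11, is floxed but intact, and Shp2f/fLysMcre mice carried in addition a Cre driven from Lyz2, the lysozyme M gene, which is active in macrophages, neutrophils and part of the monocytes. Tumor-associated macrophages (TAM) were sorted from the tumor as live CD45+ CD11b+ F4/80+ Ly6G- cells (3 samples of each genotype), and myeloid-derived suppressor cells (MDSC) were taken from the spleen with magnetic beads for the granulocytic GR-1+ fraction (2 samples of each genotype). Both cell types came from the same mice, but the labels do not tie a TAM sample to an MDSC sample, give no age, and do not say whether each sample was 1 animal, so p-values measure the spread between these samples.

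A macrophage acquires its identity in layers. Lineage factors shared by all macrophages, such as PU.1, open a common set of enhancers, and further factors that respond to local signals, among them oxysterols, fatty acids, heme and lysosomal stress, add the program of a given tissue. Maf restrains self-renewal and drives genes of mature macrophages, Nr1h3 (liver X receptor alpha, LXR) and Pparg (PPAR-gamma) are lipid-sensing nuclear receptors that pair with retinoid X receptors, and Spic is an Ets factor that heme induces in the iron-recycling macrophages of the spleen. Mitf and Tfec belong to the MiT/TFE family of lysosomal regulators, Id3 binds and blocks basic helix-loop-helix proteins, Zeb2 is a zinc finger repressor that maintains the identity of tissue macrophages, and Bhlhe40 is a repressor that permits macrophage proliferation.

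In the GRCm38 assembly Maf (ENSMUSG00000055435) lies at chr8:115682942-115707794 on the minus strand, Nr1h3 (ENSMUSG00000002108) at chr2:91184061-91202834 on the minus strand, Zeb2 (ENSMUSG00000026872) at chr2:44983632-45117395 on the minus strand, Id3 (ENSMUSG00000007872) at chr4:136143497-136145755 on the plus strand and Spic (ENSMUSG00000004359) at chr10:88674772-88685015 on the minus strand. The other 4 lie apart on chromosome 6, with Tfec (ENSMUSG00000029553) at chr6:16833373-16898441 on the minus strand, and Mitf (ENSMUSG00000035158) at chr6:97807052-98021349, Bhlhe40 (ENSMUSG00000030103) at chr6:108660629-108666925 and Pparg (ENSMUSG00000000440) at chr6:115360951-115490399 on the plus strand. Counts cover all exons of a gene and do not say which start site or isoform was used. Another annotated gene on the opposite strand overlaps 6 of the 9 (Maf, Mitf, Nr1h3, Pparg, Zeb2 and Bhlhe40), and since the strand setting of the counting was not stated, reads of such a partner could be part of their counts.

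The promoters of Spic, Pparg and Mitf are printed because, of the members with an entry in the promoter table, Spic and Pparg had the largest rises and Mitf the largest fall between the genotypes in TAM. Each run holds the 250 bases before an annotated RefSeq start (GRCm38.p6), 5′ to 3′ on the strand of the gene. Capitals mark the motif letters that were searched on both strands, namely CACGTG (the E-box of MiT/TFE and Bhlhe40), CAGGTG (the E-box of Zeb2), TGCTGA (the core of the Maf element), GAGGAA (the core of PU.1 and Spic sites) and AGGTCA (the half-site of nuclear receptors).
Spic, chr10:88683024-88683273, minus strand: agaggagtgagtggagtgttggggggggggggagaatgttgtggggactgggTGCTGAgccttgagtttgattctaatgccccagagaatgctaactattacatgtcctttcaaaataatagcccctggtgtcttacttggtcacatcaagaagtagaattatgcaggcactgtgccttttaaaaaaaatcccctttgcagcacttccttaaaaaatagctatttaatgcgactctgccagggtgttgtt
Pparg, first start, chr6:115360894-115361143, plus strand: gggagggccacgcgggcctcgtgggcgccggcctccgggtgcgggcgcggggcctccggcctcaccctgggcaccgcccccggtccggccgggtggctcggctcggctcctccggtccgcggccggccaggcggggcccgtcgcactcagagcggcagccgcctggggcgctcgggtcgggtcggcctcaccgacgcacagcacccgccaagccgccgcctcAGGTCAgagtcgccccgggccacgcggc
Pparg, second start, chr6:115362099-115362348, plus strand: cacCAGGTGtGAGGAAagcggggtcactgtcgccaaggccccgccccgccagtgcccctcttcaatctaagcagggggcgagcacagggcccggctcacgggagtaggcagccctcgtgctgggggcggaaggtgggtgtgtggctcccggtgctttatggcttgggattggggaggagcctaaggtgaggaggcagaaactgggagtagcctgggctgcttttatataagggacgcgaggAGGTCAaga
Mitf, first start, chr6:97806808-97807057, plus strand: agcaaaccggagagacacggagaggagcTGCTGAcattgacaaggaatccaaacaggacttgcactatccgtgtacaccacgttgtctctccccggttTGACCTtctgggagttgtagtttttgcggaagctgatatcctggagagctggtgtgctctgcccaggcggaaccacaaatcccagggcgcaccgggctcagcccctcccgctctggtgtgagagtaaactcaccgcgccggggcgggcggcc
The Spic window held 1 TGCTGA, and the 2 Pparg windows printed each held 1 AGGTCA, which in the second stands next to the start, while CAGGTG and GAGGAA lie side by side at its far end. The first Mitf window held 1 TGCTGA and 1 AGGTCA, the latter read on the other strand (TGACCT). Of the windows not printed, the second of Mitf held CAGGTG and TGCTGA, and the third of Mitf and the third of Pparg held none of the 5 motifs. Among all 32851 promoter windows of the table, TGCTGA was present in 16.1%, AGGTCA in 14%, CAGGTG in 17.2%, GAGGAA in 23.3% and CACGTG in 6.02%. RefSeq windows were matched for 7 of the 9 members, with 15 windows in all, and CACGTG was in none of these windows. All 4 Zeb2 windows held GAGGAA. These matches describe the letters only.

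All 9 genes were transcribed in both cell types and passed the filter on low counts in every comparison. Levels are given as CPM, the count of a gene relative to the size of its library after TMM scaling, and levels of different genes are compared as RPKM, which is CPM per kilobase of exon. In TAM of Shp2f/f mice Bhlhe40 had the highest level at 113 RPKM, followed by Nr1h3 (32.9), Zeb2 (28.8), Maf (26.4), Mitf (18.6), Id3 (10.8), Tfec (8.05), Pparg (2.8) and Spic (1.93), and no neighbours in this order overlapped between samples. In TAM of Shp2f/fLysMcre mice Maf stood second at 48.7 RPKM, between Bhlhe40 (89.7) and Nr1h3 (43.1), while Mitf (12.5) had dropped next to Tfec (11.9), and Spic reached 6.19 against 6.46 for Pparg. The samples of these last 2 pairs, Mitf with Tfec and Pparg with Spic, overlapped.

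In MDSC of Shp2f/f mice the order was Bhlhe40 (18 RPKM), Zeb2 (16.6), Nr1h3 (11.6), Tfec (6.93), Id3 (4.97), Maf (4.68), Spic (4.13), Mitf (2.73) and Pparg (2.31). The samples of Id3, Maf and Spic overlapped with each other. MDSC of Shp2f/fLysMcre mice had the same leading pair, Bhlhe40 (18.6 RPKM) and Zeb2 (12.6), and Mitf (2.4) and Pparg (2.63) again came last and overlapped. In that group Id3 had a mean of 12.5 RPKM over samples that lay at 2.75 and 22.2, so it overlapped every other member except Mitf. Nr1h3 (8.29) came next below it. Tfec (5.83), Spic (4.88) and Maf (3.77) followed, and Spic overlapped both of the others.

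**Figure D1:**
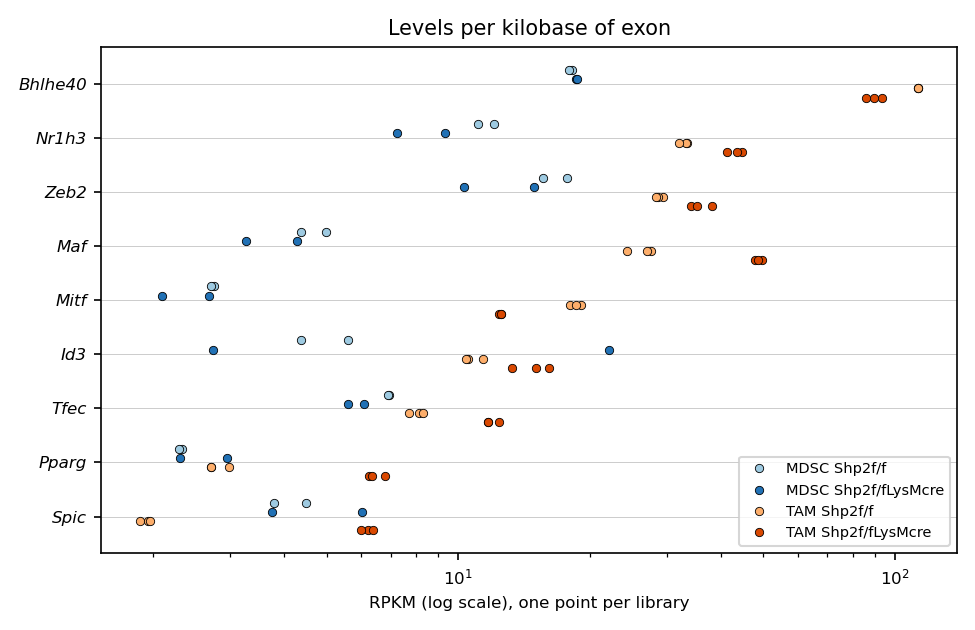
Level of the 9 transcription factors per kilobase of exon (RPKM, log axis) in the 4 groups, with a point for each sample. Bhlhe40 had the highest mean in every group, at 113 RPKM in TAM of Shp2f/f mice, and Spic (1.93) and Pparg (2.8) were last there.

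The libraries held 28844660 to 38222998 assigned reads in TAM and 33262119 to 36541823 in MDSC. The targeted gene, Ptpn11, fell in TAM (log2 -1.24, edgeR adjusted p = 2.96e-09), where it went from 121 to 125 CPM in the Shp2f/f samples to 50.9 to 54.2 CPM in the Shp2f/fLysMcre samples, whereas in MDSC it was 99.2 to 113 CPM against 79.7 to 94.8 CPM (log2 fold change -0.29, edgeR adjusted p = 0.361). Lyz2, whose locus holds Cre, was lower in both cell types (log2 -8.33 in TAM and -7.68 in MDSC). The control mice carried no Cre. The presence of Cre and the loss of Lyz2 transcripts therefore cannot be told apart from the deletion of Ptpn11. Xist, the transcript of the inactive X chromosome, was at 0.0289 to 0.029 CPM in MDSC and 4.82 to 18.1 CPM in TAM of Shp2f/f mice, and at 119 to 132 CPM and 209 to 372 CPM in the Shp2f/fLysMcre samples, so sex and genotype cannot be told apart in these libraries. The MDSC samples carried transcripts of both granulocytes and monocytes. Among granulocyte genes, S100a8 was at 4800 RPKM in Shp2f/f and 11900 RPKM in Shp2f/fLysMcre mice and Camp at 406 and 2130 RPKM, whereas Ly6g, which defines the granulocytic fraction, was at 11.1 and 33.4 RPKM. The monocyte genes Csf1r (248 and 196 RPKM) and Ccr2 (286 and 199 RPKM) lay between. In a list of 5 monocyte markers, Ccr2 was lower and Chil3 (1470 and 2670 RPKM) higher in the mean of Shp2f/fLysMcre samples. That list summed to 8380 to 8570 CPM in Shp2f/f and to 7880 to 10400 CPM in Shp2f/fLysMcre MDSC, ranges that overlapped. By edgeR 0 of its 5 genes were called between the genotypes in MDSC. In bulk samples such as these, fewer cells of a type and less RNA per cell cannot be told apart.

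In TAM all 9 transcription factors differed between the genotypes. Spic, Pparg, Maf, Tfec, Id3, Nr1h3 and Zeb2 were higher in Shp2f/fLysMcre mice, from 3.13-fold for Spic to 1.21-fold for Zeb2, and Mitf and Bhlhe40 were lower, at 0.656 and 0.776 of the Shp2f/f level. The groups did not overlap for any of the 9. This comparison separated the groups widely across the transcriptome: 50.2% of the 14446 genes tested were called at an adjusted p under 0.05, 23.9% as higher and 26.3% as lower, and 57.9% had groups that did not overlap. The median log2 fold change was 0.43 over the 9 members and -0.013 over all genes. With libraries scaled to their total counts the median of all genes was -0.111, and 30.9% of the calls were higher in place of 47.6%, and the 9 members kept their directions and calls.

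The lineage factor Maf rose the most in absolute level. It stood at 201, 228 and 223 CPM in the Shp2f/f samples and at 395, 408 and 401 CPM in the Shp2f/fLysMcre samples of TAM. The 3 samples of each genotype lay close together and the groups were far apart. The difference was 1.8-fold (log2 0.85, SE 0.0474, edgeR adjusted p = 1.47e-07). Zeb2 was at 586, 572 and 566 CPM in Shp2f/f and at 682, 701 and 762 CPM in Shp2f/fLysMcre samples, the smallest of the 7 rises (log2 0.28, SE 0.0467, edgeR adjusted p = 0.000461).

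The nuclear receptors both rose, Pparg from a low and Nr1h3 from a higher level. Pparg was at 8, 8.03 and 8.81 CPM in Shp2f/f and at 20, 18.4 and 18.8 CPM in Shp2f/fLysMcre TAM, so that every Shp2f/fLysMcre sample lay above every control by a wide margin (2.25-fold, log2 1.17, SE 0.0676, edgeR adjusted p = 1.83e-07). Nr1h3 was at 84, 83.7 and 80.7 CPM in Shp2f/f and at 112, 109 and 104 CPM in Shp2f/fLysMcre TAM. This was a smaller step between equally tight groups (1.28-fold, log2 0.35, SE 0.0391, edgeR adjusted p = 2.19e-05).

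Spic, the heme-responsive factor, showed the largest change of the set. Its level was 7.2, 7.48 and 7.58 CPM in Shp2f/f TAM and 23.8, 24.5 and 23 CPM in Shp2f/fLysMcre TAM. The samples of each genotype were almost superimposed, and the rise was 3.13-fold (log2 1.64, SE 0.0577, edgeR adjusted p = 6.93e-09). Id3 was at 18.8, 20.5 and 18.6 CPM in Shp2f/f and at 27.1, 28.9 and 23.8 CPM in Shp2f/fLysMcre TAM (log2 0.43, SE 0.0685, edgeR adjusted p = 0.000329), with the third Shp2f/fLysMcre sample nearest to the controls.

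The related factors Mitf and Tfec moved in opposite directions. Mitf was at 111, 119 and 115 CPM in Shp2f/f and at 77.5, 77.1 and 77.5 CPM in Shp2f/fLysMcre TAM (log2 -0.61, SE 0.0362, edgeR adjusted p = 2.25e-07). Tfec was at 45.5, 46.5 and 43.1 CPM in Shp2f/f and at 65.2, 69.5 and 65.4 CPM in Shp2f/fLysMcre TAM (log2 0.53, SE 0.0441, edgeR adjusted p = 2.39e-06). Mitf transcripts were thus fewer and Tfec transcripts more in each Shp2f/fLysMcre sample than in each control. Bhlhe40 was at 530, 531 and 531 CPM in Shp2f/f TAM and at 441, 422 and 404 CPM in Shp2f/fLysMcre TAM, a fall to 0.776 of the control level (log2 -0.37, SE 0.0397, edgeR adjusted p = 1.85e-05). The control samples of Bhlhe40 coincided, and the Shp2f/fLysMcre samples spread below them.

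**Figure D2:**
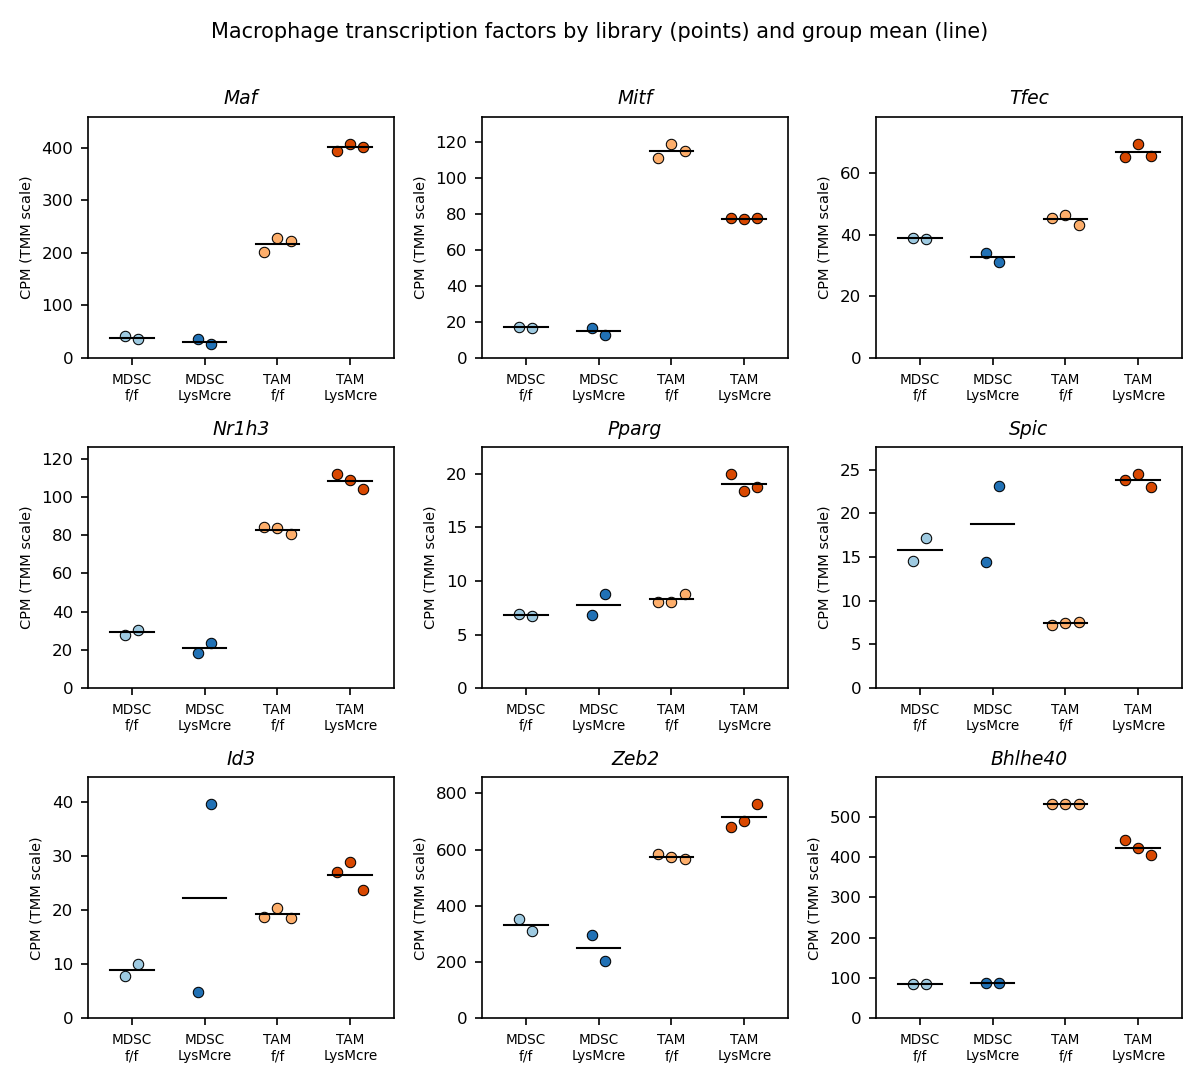
Level of each of the 9 transcription factors (CPM, linear axis from 0, with its own range per panel) in each of the 10 samples by cell type and genotype, with points for samples and lines for group means. In TAM the genotypes are separate in every panel, for Spic at 7.2 to 7.58 against 23 to 24.5 CPM, and in MDSC the widest spread is that of Id3, with 1 Shp2f/fLysMcre sample at 39.7 CPM.

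Other lists of cell markers moved with the genotype in TAM, and their part in these results was not tested. Over all genes tested in TAM 23.9% were called higher and 26.3% lower. All 9 of 9 macrophage markers were called higher, with a summed level of 9600 to 9890 CPM in Shp2f/f and 13100 to 13500 CPM in Shp2f/fLysMcre samples. This list shares C1qa, C1qb, C1qc and Mrc1 with the genes linked to Maf below, and Mertk with the LXR target genes below. Of 7 tested neutrophil markers 4 were called higher and 1 lower, and the list summed to 4320 to 4540 CPM and to 2220 to 2270 CPM. The gene that fell was Mmp9, which macrophages also express and which made up most of the sum (4070 to 2010 CPM in the mean), while S100a8, S100a9, Cxcr2 and Csf3r rose. All 7 red pulp macrophage markers were called, 6 higher and 1 lower, with sums of 1040 to 1080 CPM and 1530 to 1540 CPM. They share Vcam1, Slc40a1, Cd163 and Treml4 with the heme and iron list below, Cd5l with the LXR target genes and Adgre1 with the macrophage markers. Counts from lists that share genes are not separate results. Of 6 T cell markers 5 were called lower and 1 higher, with sums of 24.7 to 26.2 CPM and 52.8 to 54 CPM. The gene that rose was Cd4, which made up most of the sum (17.9 to 54.1 CPM in the mean after TMM scaling). Cd3e, Cd3d, Cd3g, Trac and Cd8a fell, with group means of at most 2.5 CPM. All 4 NK cell markers were called lower, with sums of 5.56 to 6.84 CPM and 1.33 to 2.15 CPM. All 8 proliferation genes were called lower (916 to 922 CPM against 509 to 542 CPM in sum), and all 8 immediate early and heat shock genes that mark stress during isolation were called higher (3370 to 3520 CPM against 6680 to 6890 CPM). All 6 pancreatic islet genes, foreign to a fibrosarcoma, were called lower, with sums of 1330, 875 and 6880 CPM in the Shp2f/f samples and 76.9, 6 and 6.17 CPM in the Shp2f/fLysMcre samples, so these transcripts went with the genotype in all samples and were highest in the third control. Without the third Shp2f/f sample 7 of the members were still called higher and 2 lower, with a median log2 fold change of 0.42. The defining genes of fat cells and pigment cells, which use Pparg and Mitf, summed to at most 0.301 and 1.18 CPM in any of the 10 samples.

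In MDSC none of the 9 was called by edgeR, where 4.28% of the 14806 genes tested (633 genes) were called. Before adjustment 2859 genes and 1 member, Nr1h3, were under 0.05, and DESeq2 called 0 of the 9. The groups did not overlap for 6 members, and this was so for 48.9% of all genes, as 2 samples a group separate easily. The median log2 fold change was -0.20 over the members and -0.015 over all genes.

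Maf was at 41.1 and 36 CPM in Shp2f/f and at 35.2 and 26.9 CPM in Shp2f/fLysMcre MDSC (log2 -0.32, 95% interval -0.75 to 0.11, edgeR adjusted p = 0.398). Zeb2 was at 353 and 311 CPM in Shp2f/f and at 296 and 204 CPM in Shp2f/fLysMcre MDSC (log2 -0.41, 95% interval -0.93 to 0.11, edgeR adjusted p = 0.366). For both genes the second Shp2f/fLysMcre sample was the lowest of the 4. Nr1h3 was at 27.8 and 30.5 CPM against 18.2 and 23.4 CPM (log2 -0.49, 95% interval -0.87 to -0.11, edgeR adjusted p = 0.164), and Pparg at 6.88 and 6.75 CPM against 6.8 and 8.75 CPM (log2 0.18, 95% interval -0.28 to 0.65, edgeR adjusted p = 0.684). The interval for Pparg does not reach the log2 1.17 seen in TAM.

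Mitf was at 17.1 and 16.8 CPM in Shp2f/f and at 16.7 and 13 CPM in Shp2f/fLysMcre MDSC (log2 -0.20, 95% interval -0.60 to 0.21, edgeR adjusted p = 0.609). Tfec was at 38.9 and 38.7 CPM and at 34.1 and 31.2 CPM (log2 -0.25, 95% interval -0.53 to 0.02, edgeR adjusted p = 0.301). Both genes were lowest in the second Shp2f/fLysMcre sample. Bhlhe40 was at 85.8 and 84.1 CPM against 87.6 and 87.8 CPM, the closest agreement between the genotypes of any member (log2 0.04, 95% interval -0.22 to 0.29, edgeR adjusted p = 0.894).

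Spic and Id3 varied between the Shp2f/fLysMcre samples. Spic was at 14.5 and 17.2 CPM in Shp2f/f and at 14.4 and 23.1 CPM in Shp2f/fLysMcre MDSC (log2 0.23, 95% interval -0.36 to 0.83, edgeR adjusted p = 0.684). Id3 was at 7.81 and 9.99 CPM in Shp2f/f and at 4.93 and 39.7 CPM in Shp2f/fLysMcre MDSC (log2 1.31, 95% interval -0.84 to 3.47, edgeR adjusted p = 0.498). In both cases the second Shp2f/fLysMcre sample was the highest and the first the lowest of the 4. The same second sample stood apart in markers of fibroblasts and tumor stroma, which summed to 628 CPM there and to 11.1 to 30.1 CPM in the other 3. Leaving out a Shp2f/fLysMcre MDSC sample leaves 1 in that group, which is then assumed to vary like the control pair. Calls made that way rest on the spread of the controls, so only effect sizes are given here. Without the second sample Id3 was at log2 -0.85 and Nr1h3 at -0.67, and the direction of Spic turned (log2 -0.13). Without the first Shp2f/fLysMcre sample Spic was at log2 0.50 and Id3 at 2.11. Maf was then at -0.57, Mitf at -0.43, Tfec at -0.36 and Zeb2 at -0.74. The source of these differences between the 2 samples was not tested.

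Marker sums also differed between the genotypes in MDSC. Over all genes tested in MDSC 4.28% were called, 3.76% as higher, and 48.9% had groups that did not overlap. These shares stand behind each list count in MDSC here and below. The neutrophil markers (4 of 8 called, all higher) summed to 8200 to 8320 CPM in Shp2f/f and to 21600 to 23600 CPM in Shp2f/fLysMcre MDSC. The erythroid markers (6 of 7 called, all higher) summed to 266 to 284 CPM and to 593 to 738 CPM, and the 8 proliferation genes, all called higher, to 650 to 685 CPM and to 1300 to 1430 CPM. The macrophage markers (median log2 fold change -0.23, with 0 of 9 called by edgeR, 4 before adjustment and 4 by DESeq2) summed to 2540 to 2630 CPM and to 2010 to 2120 CPM. The red pulp macrophage markers, from the spleen cells best known for Spic, summed to 677 to 700 CPM and to 680 to 721 CPM, ranges that overlapped. Within that list the median log2 fold change was 0.81, all 7 genes had groups without overlap and 1, Slc40a1, was called higher, while its most abundant gene, Adgre1, was at 380 and 248 CPM in the mean and was not called. None of the neutrophil, erythroid, macrophage and red pulp lists had a gene at 0 in either group. Their part in the members' values was not tested.

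The genotype effect itself was compared between the cell types with an interaction term over all 10 samples. This fit used an estimate of spread shared by both cell types. The common coefficient of variation between replicates was 0.141 in it, 0.0595 in TAM alone and 0.189 in MDSC alone. Intervals and p-values of the difference can therefore understate the noise of the MDSC samples. The genotype effect was called different for 7 of the 9 members, against 24.9% of the 16581 genes tested (4132 genes). For 6 members the effect was more positive in TAM than in MDSC, a direction called for 12.2% of all genes. Spic had the largest difference (log2 1.44, 95% interval 0.91 to 1.97, edgeR adjusted p = 0.00196), then Maf (1.20, interval 0.85 to 1.54, edgeR adjusted p = 0.000485) and Pparg (1.01, interval 0.65 to 1.37, edgeR adjusted p = 0.00159). Nr1h3 (0.87), Tfec (0.82) and Zeb2 (0.72) followed with edgeR adjusted p of 0.00141, 0.00017 and 0.02. Bhlhe40 differed the other way (-0.38, interval -0.55 to -0.20, edgeR adjusted p = 0.00704).

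Mitf was just outside the threshold (log2 -0.38, 95% interval -0.66 to -0.10, edgeR adjusted p = 0.0543), and Id3 had a wide interval (-0.87, from -2.74 to 1.01, edgeR adjusted p = 0.496). Leaving out the second Shp2f/fLysMcre MDSC sample leaves 1 in that group. The median difference over the members was then 1.01, and the difference for Id3 turned to 1.31. Without the first, the difference for Id3 was -1.68. The median over the members was 0.82 with all samples and -0.013 over all genes. With total-count scaling the median of all genes was -0.184 and 28.3% of the calls were higher in place of 49.1%. These differences use the same samples as the comparisons within each cell type and do not add to them.

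**Figure D3:**
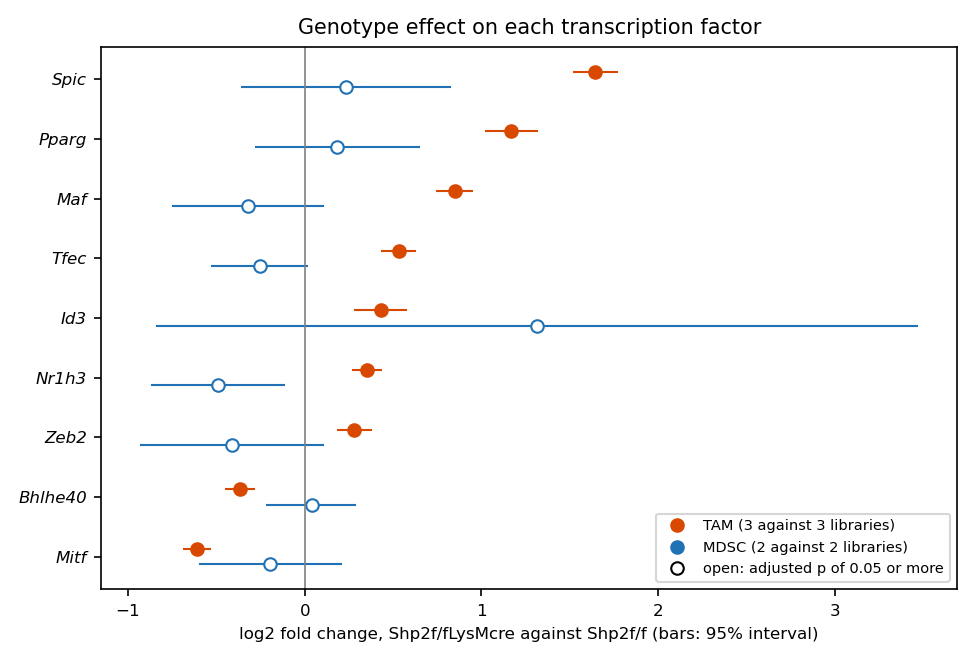
Genotype effect on the 9 transcription factors as log2 fold change of Shp2f/fLysMcre over Shp2f/f in TAM and in MDSC, with 95% intervals from edgeR. In TAM no interval reaches 0, whereas in MDSC 8 of 9 do and that of Id3 runs from -0.84 to 3.47.

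Between the cell types of Shp2f/f mice, 8 of the 9 factors were higher in TAM than in MDSC. The largest steps were those of Mitf (6.77-fold), Bhlhe40 (6.23-fold) and Maf (5.63-fold), followed by Nr1h3 (log2 1.50, edgeR adjusted p = 7.54e-09), Id3 (1.11, 5.72e-06) and Zeb2 (0.79, 1.86e-06). Pparg (0.28, edgeR adjusted p = 0.0216) and Tfec (0.21, 0.00444) differed little, and Spic was lower in TAM (-1.10, edgeR adjusted p = 2.48e-06). The call for Pparg was lost in 5 of 12 alternatives, with an edgeR or DESeq2 adjusted p of up to 0.0888. All 9 were called, as were 78.8% of the 15659 genes tested, with 40% of those tested called higher. The median log2 difference was 1.11 over the members and 0.012 over all genes. Tissue, cell type and isolation method cannot be told apart in this comparison.

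In Shp2f/fLysMcre mice 7 members were called and all of these were higher in TAM, against 63.5% of 15741 genes called and 29.8% called higher. Maf showed a 13-fold difference (log2 3.70, edgeR adjusted p = 1.22e-05), and Pparg, nearly level between the cell types of control mice, was at log2 1.30 (edgeR adjusted p = 0.000561). Mitf and Nr1h3 were both at log2 2.39, Bhlhe40 at 2.27, Zeb2 at 1.52 and Tfec at 1.04. Spic (0.35, edgeR adjusted p = 0.169) and Id3 (0.26, edgeR adjusted p = 0.778) were not called. With 1 MDSC sample left, the differences for Spic and Id3 depended on which it was, and only effect sizes are given. Without the second MDSC sample Spic was at log2 0.71 and Id3 at 2.41, and without the first MDSC sample Id3 was at -0.56. The median was 1.52 over the members and -0.051 over all genes. With total-count scaling the median of all genes was -0.257 and 36% of the calls were higher in place of 46.9%.

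The family members and partners of the 9 factors were followed as a list of 21 genes, of which 18 were tested in TAM. Of these, 11 were called higher and 4 lower in Shp2f/fLysMcre TAM, where 23.9% of all genes tested were called higher and 26.3% lower, shares that stand behind each list count in TAM below, with a median log2 fold change of 0.21. Rxra, the partner of both nuclear receptors, rose 1.62-fold in TAM (edgeR adjusted p = 9.51e-08), and Nr1h2, the second LXR, rose 1.15-fold (edgeR adjusted p = 0.000933).

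The other MiT/TFE genes, Tfeb (log2 0.19, edgeR adjusted p = 0.00762) and Tfe3 (0.24, edgeR adjusted p = 0.000268), rose slightly in TAM, on the side of Tfec and opposite to Mitf. Id2, which like Id3 blocks E proteins, rose 1.5-fold from 264 to 288 CPM to 410 to 436 CPM (edgeR adjusted p = 7.68e-07). Zeb1, the paralog of Zeb2, went down (log2 -0.48, edgeR adjusted p = 1.48e-05), and Bhlhe41, the paralog of Bhlhe40, went up (0.50, edgeR adjusted p = 0.0279) at no more than 3.09 CPM. The Zeb pair and the Bhlhe pair were thus each called in opposite directions. Spi1, which encodes PU.1, was at 442 to 473 CPM in Shp2f/f and at 454 to 499 CPM in Shp2f/fLysMcre TAM and was not called (log2 0.04, edgeR adjusted p = 0.472). Of the 18 genes of the list tested in MDSC, edgeR called 0 (7 before adjustment) and DESeq2 called 5. The median log2 fold change was -0.01 with all MDSC samples and 0.00 without the second Shp2f/fLysMcre sample.

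Known LXR target genes were called in 11 of 11 cases in TAM, 10 higher and 1 lower, with a median of 0.60, where 50.2% of all genes were called. Apoe, the lipoprotein that carries cholesterol out of macrophages, went from 3290 to 3500 CPM to 6320 to 7650 CPM (log2 1.01, edgeR adjusted p = 1.13e-07). Cd5l (log2 1.04, at no more than 2.26 CPM in TAM), Smpdl3a (0.76) and the efferocytosis receptor Mertk (0.71) were also higher. Lpl, which encodes lipoprotein lipase and is a target of both LXR and PPAR-gamma, was the exception and fell from 250 to 277 CPM to 149 to 151 CPM (log2 -0.85, edgeR adjusted p = 7.07e-08). In MDSC edgeR called 0 of the 11 (4 before adjustment) and DESeq2 called 2. The median log2 fold change was 0.05 with all MDSC samples and 0.02 without the second Shp2f/fLysMcre sample.

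Of 7 tested PPAR-gamma target genes in TAM, 5 were higher and 1 lower, with a median of 0.42. The fatty acid receptor Cd36 rose 2.62-fold to 22.2 to 24.8 CPM (edgeR adjusted p = 3.67e-08), and Plin2, which coats lipid droplets, rose 1.76-fold to 939 to 1080 CPM (edgeR adjusted p = 1.83e-07). Fabp4 (log2 0.60) and Cpt1a (0.42) rose as well. The 1 that fell was Lpl. In MDSC 1 of 8 was called, the lipase gene Mgll, at 5.58 to 5.92 CPM and 15.4 to 16.4 CPM (log2 1.46, edgeR adjusted p = 0.0179).

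The MiT/TFE target genes divided in TAM. Of 13 genes, 8 were called higher and 3 lower, with a median of 0.28. The 3 that fell were the protease gene Ctsk (from 2030 to 2160 CPM to 764 to 881 CPM, log2 -1.37, edgeR adjusted p = 5.92e-09), the proton pump subunit gene Atp6v0d2 (log2 -1.20, edgeR adjusted p = 7.81e-09) and the acid phosphatase gene Acp5 (log2 -0.99, edgeR adjusted p = 1.9e-08). Among those that rose were Flcn, a regulator of the family on the lysosome (log2 0.67, edgeR adjusted p = 5.74e-07), and Sqstm1, the autophagy receptor p62 (0.39, edgeR adjusted p = 1.45e-05). Like Ctsk and Acp5, Ostm1 and Clcn7 are known from osteoclasts, but Ostm1 rose (0.28, edgeR adjusted p = 0.000135) and Clcn7 was not called (-0.02, edgeR adjusted p = 0.643). The abundance of the falling genes set the sum of the list, which went from 6060 to 6210 CPM to 3980 to 4200 CPM although most of its genes rose. In MDSC 0 of 12 were called by edgeR (3 before adjustment) and 0 by DESeq2.

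All 7 genes of the heme and iron list of Spic-dependent macrophages were higher in Shp2f/fLysMcre TAM, with a median of 1.12. Besides genes of heme and iron handling the list holds Vcam1 and Treml4, which are also in the red pulp list. The iron exporter ferroportin, Slc40a1, rose 3.05-fold from 10.3 to 11.7 CPM to 33.3 to 35.8 CPM (edgeR adjusted p = 8.26e-09), and the heme oxygenase gene Hmox1 rose 2.59-fold from 336 to 347 CPM to 845 to 976 CPM (edgeR adjusted p = 8.26e-09). The hemoglobin scavenger receptor Cd163 rose 2.51-fold (edgeR adjusted p = 2.2e-09), and the adhesion molecule Vcam1 rose 2.17-fold (edgeR adjusted p = 8.04e-09). In MDSC edgeR called 1 of 7, again Slc40a1, and DESeq2 called 3. Slc40a1 went from 59.9 to 63.6 CPM to 125 to 127 CPM (log2 1.03, edgeR adjusted p = 0.0183), while Spic was not called there.

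All 13 genes linked to Maf in macrophages were called higher in Shp2f/fLysMcre TAM, with a median of 0.63. Of these, C1qa, C1qb, C1qc and Mrc1 are also in the macrophage marker list, and Cd163 is also in the heme and iron list. Besides Cd163 the largest changes were those of F13a1, a transglutaminase gene of monocytes and resident macrophages (log2 0.80), Gas6, the ligand of Mertk (0.77), and the complement genes C1qb (0.74, from 1250 to 1310 CPM to 2070 to 2290 CPM) and C1qa (0.73). In MDSC edgeR called 0 of 12 (4 before adjustment) and DESeq2 called 2. The median log2 fold change was 0.44 with all MDSC samples and -0.04 without the second Shp2f/fLysMcre sample.

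The difference of the genotype effect between the cell types was called for 8 of 18 family and partner genes and 6 of 11 LXR target genes. It was called for 5 of 8 PPAR-gamma target genes and 7 of 13 MiT/TFE target genes. In the heme and iron list it was called for 5 of 7 genes, and among Maf-linked genes for 3 of 13. The calls were more positive in TAM for 5, 5, 4, 5, 5 and 3 of these, respectively. Over all genes 24.9% were called and 12.2% were more positive in TAM, and the Maf-linked genes lay near the first of these shares.

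**Figure D4:**
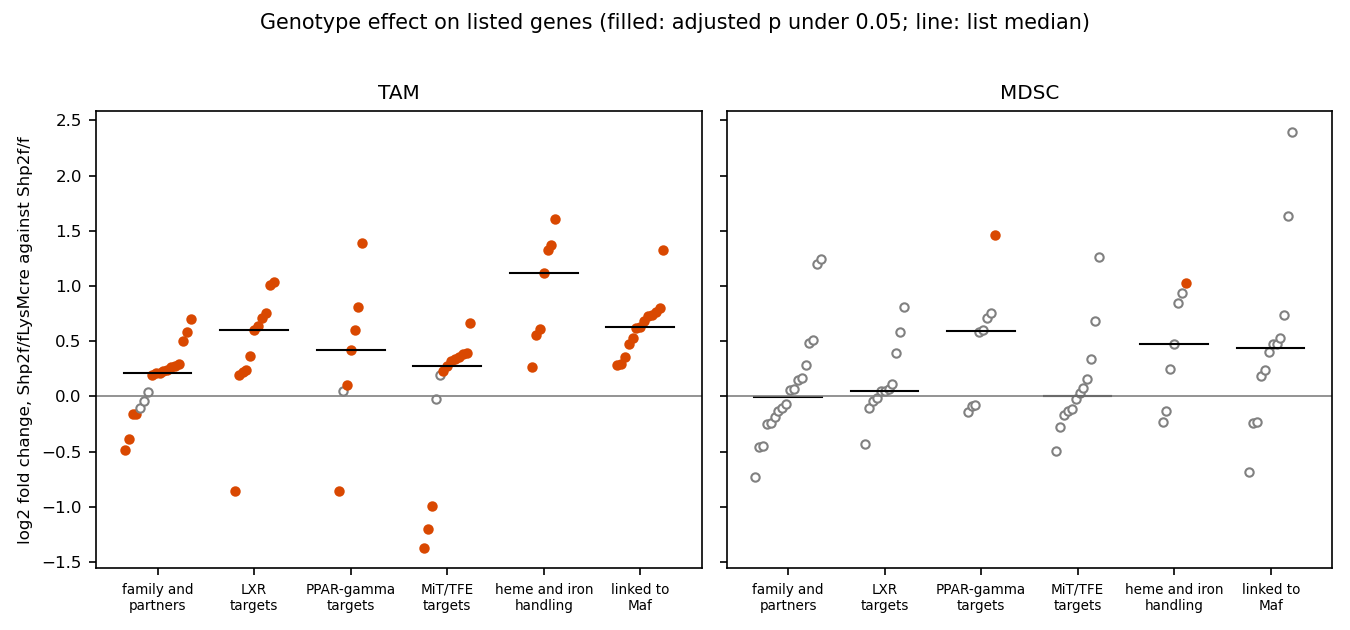
Log2 fold change of Shp2f/fLysMcre over Shp2f/f in TAM and MDSC for the genes of the family and target lists, with a point for each gene and called genes marked. In TAM all 13 Maf-linked genes and all 7 genes of the heme and iron list lie above 0, and Ctsk, Atp6v0d2, Acp5 and Lpl lie below it.

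Over the 10 samples, after the mean of each cell type was subtracted from log2 CPM, Spic and Pparg ran closest together (Pearson r = 0.99), followed by Maf and Tfec (0.97). Mitf ran opposite to both Spic and Pparg (-0.97 each), and Bhlhe40 opposite to Tfec (-0.93). Among the 8841 genes that averaged 10 CPM or more, those most like Spic were Hmox1 (0.996), Mcoln1 (0.992) and Pld3 (0.992), and those most like Pparg were Itgam (0.995), Plk2 (0.991) and again Hmox1 (0.99). Maf was most like March1 (0.996), Nceh1 (0.994) and Tob1 (0.992), and Tfec most like Pik3cd (0.996), Idua (0.994) and Sidt2 (0.991). Mitf was most like Tomm70a (0.995), AI506816 (0.993) and Prpf19 (0.991), and Bhlhe40 most like Sfxn1 (0.993), Hspd1 (0.993) and Hsp90ab1 (0.992). Ccl2 (0.991) and Cd72 (0.989) were among the genes most like Nr1h3. Zeb2 was most like Ahr (0.99), Itpkb (0.99) and Trps1 (0.988), and Id3 most like Mmp14 (0.987), Nfkbid (0.979) and Flrt3 (0.973). The values for Id3 rest largely on the second Shp2f/fLysMcre MDSC sample, at 39.7 CPM against 4.93 CPM in the first. That sample also stood apart in stroma markers. The points share libraries and fall into genotype groups, so these values describe these samples and carry no p.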

How the data were processed

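RNA sequencing covered 10 samples in 4 groups of 2 cell types and 2 genotypes, grouped by their titles. The authors made stranded poly(A) libraries, checked reads with FastQC 0.11.5, trimmed them with cutadapt 2.5, aligned them to GRCm38 with STAR 2.7.3a and counted reads per Ensembl gene with featureCounts of Subread 1.6.2. They deposited raw counts, whole numbers without normalization, for 55421 genes, of which 24391 had no counts. The strand setting of the counting is not given in the sources used here. A deposited normalized table and the authors' own comparisons were not used.

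Symbols and exon lengths came from GENCODE for GRCm38 (99.67% of identifiers matched). Counts were tested with edgeR 4.0.16 (R 4.3.3, quasi-likelihood F test, TMM scaling, filterByExpr with a minimum count of 10) and adjusted by Benjamini-Hochberg over all genes tested, with calls at an adjusted p under 0.05. SE and 95% intervals use the fit's degrees of freedom. Sums over marker lists are CPM of the total count. No pair of replicates was alike within sampling noise. The members and lists were chosen with earlier results of these data known. Values in every sample are given for the 9 members. For the lists, values are given for up to 5 called genes with the largest change and a mean of at least 1 CPM, and in any case for Nr1h2, Tfeb, Tfe3, Id2, Bhlhe41 and Spi1. Some genes of the lists and among those most like a member are not reported here. Alternatives were DESeq2 1.42.0, other scalings, other filters, a replicate block and leaving out each sample. The test was checked on simulated counts. Replicate numbers were not taken as pairs.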

Additional observations from a re-analysis of the deposited data

Results flagged for a closer look

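For 7 of the 9 transcription factors the genotype effect differed between TAM and MDSC in the interaction test of edgeR, and these results are set out again for a closer look. Over all genes 24.9% were called in that test, which shares an estimate of spread between the cell types. The calls for Zeb2 and Bhlhe40 did not hold under every alternative. The difference, TAM minus MDSC on the log2 scale, was 1.44 for Spic, 1.20 for Maf, 1.01 for Pparg, 0.87 for Nr1h3, 0.82 for Tfec, 0.72 for Zeb2 and -0.38 for Bhlhe40. The gene was higher in all 3 Shp2f/fLysMcre TAM samples than in all 3 controls for the first 6, and lower for Bhlhe40. In TAM 57.9% of all genes had groups that did not overlap. Levels differed between tissues and isolation methods as well, and the MDSC values rest on 2 samples of each genotype. No sample of the 10 could be tested as an outlier, since no group had 4 samples.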

How the results depend on the processing

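In TAM all 117 values of the members under the alternatives kept their direction and call, from 0.18 to 0.32 on the log2 scale for Zeb2, the smallest. In MDSC 87 of 99 did, for the difference 144 of 153, for TAM against MDSC 103 of 108 in Shp2f/f and 105 of 108 in Shp2f/fLysMcre mice. Directions turned for Spic in MDSC (-0.13) and for Id3 in MDSC (-0.85) and in the difference (1.31) without MDSC Shp2f/fLysMcre replicate 2, and for Id3 between cell types in Shp2f/fLysMcre mice (-0.56) without replicate 1. Without replicate 1 Spic was at 0.50 and Id3 at 2.11 in MDSC, and the Id3 difference was -1.68. Without replicate 2 Id3 between cell types was at 2.41. The count of called genes in MDSC, 633 in the report, was 1256 with DESeq2, 130 without a filter on low counts and 1 to 4406 when a sample was left out. It was 1 without either Shp2f/f sample, 4406 without Shp2f/fLysMcre replicate 1 and 2729 without replicate 2. For the difference, 4132 in the report, it was 2446 to 7023, with 2519 and 2446 without MDSC Shp2f/f replicate 1 and 2 and 7023 without MDSC Shp2f/fLysMcre replicate 1. The causes were not tested.

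The Mitf difference was called with total-count scaling (-0.55), a minimum count of 50 (-0.40) and the replicate block (-0.37). The Bhlhe40 difference was not called without a filter (-0.34, adjusted p = 0.0614 in edgeR) or without MDSC Shp2f/f replicate 2 (-0.34, 0.0736), nor that of Zeb2 without MDSC Shp2f/f replicate 1 (0.63, 0.0956). Pparg between cell types in Shp2f/f mice lost its call in DESeq2 (0.0845), under the block (0.0888) and without MDSC Shp2f/f replicate 1 (0.0517) or 2 (0.0739) or TAM Shp2f/f replicate 3 (0.0825). With the replicate number as a block, 2674 genes were called in MDSC, among them Maf (-0.33), Nr1h3 (-0.50) and Zeb2 (-0.44), 6898 in TAM, 5232 for the difference, 12292 between cell types in Shp2f/f and 6803 in Shp2f/fLysMcre mice. Deviations of same-numbered samples correlated at -0.19, 0.059 and -0.0032 in TAM and at 0.36 in both MDSC pairs, which with 2 samples a group take the same value by construction. The labels do not say what a number marks, and whether it marks shared animals was not tested. Depth did not limit the members, whose lowest count was 182 reads, but 2 samples a genotype limit MDSC.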
